A study of Mus musculus with 10 samples.

Results

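The transcriptional response of Lcn2 knockout neutrophils to fMLP was read from 5 of the 10 arrays of the series, taken by their labels: 2 of knockout cells stimulated with fMLP and 3 of unstimulated knockout cells. Lcn2 encodes lipocalin 2, a granule protein that binds bacterial iron carriers, and the study asked what its loss does in resting and in stimulated neutrophils. All arrays held RNA of neutrophils enriched on a Percoll gradient from the femur and tibia marrow of female C57BL/6 mice, 10 weeks old. Stimulated cells, wild type or knockout, were kept with 10 micromolar fMLP at 37 °C for 20 minutes, and the unstimulated groups, wild type or knockout, received none. The other 5 arrays, 3 of unstimulated and 2 of fMLP stimulated wild type cells, serve here as the comparison. The labels do not say whether replicates came from separate animals, so the p-values below measure only the spread between these arrays. They also do not say whether unstimulated cells were kept at 37 °C for the same time.

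fMLP is a formylated peptide of the kind that bacteria release. Neutrophils detect such peptides with formyl peptide receptors, which act through Gi proteins, phosphoinositide 3-kinase and MAP kinases to start chemotaxis, degranulation and the oxidative burst. The same kinases switch on immediate early genes, which need no new protein synthesis: transcription factors of the AP-1, EGR and NR4A families, phosphatases that end the signal, inhibitors of NF-kB, and chemokines that draw in further leukocytes.

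The arrays did not form 1 uniform set, and some went against their labels. Unstimulated replicates 1 and 2 of both genotypes had a narrow spread of values, with an interquartile range of 1.64 to 1.68 on the log2 scale. Unstimulated replicate 3 of both genotypes and the 4 fMLP arrays had a wide one, of 2.47 to 2.59. Over all probe sets, unstimulated knockout replicate 3 correlated at 0.979 with fMLP replicate 1, against 0.756 and 0.760 with unstimulated knockout replicates 1 and 2. fMLP knockout replicate 2 carried neuron transcripts: Snap25, a synaptic vesicle fusion protein, stood at 13.43 there and between 7.36 and 8.78 on the other 9 arrays. The 21 tested genes of a neuron list had a median log2 difference of 3.07 between that array and unstimulated replicate 3, and one of -0.003 between fMLP replicate 1 and the same array. The 10 glia genes had medians of 0.41 and -0.04.

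All samples are labelled female, but the sex-linked genes differed between the arrays compared. Xist, the RNA that silences an X chromosome in female cells, stood at 7.82, 7.74 and 6.94 on unstimulated knockout replicates 1, 2 and 3, and at 10.97 and 9.83 on fMLP replicates 1 and 2. The Y-linked Eif2s3y stood at 6.77, 7.16 and 9.59 and at 5.36 and 6.48 in the same order. Unstimulated replicate 3 of the knockout was thus lowest in Xist and highest in Eif2s3y, and wild type replicate 3 had the same pattern, with 6.88 and 9.83. Differences that follow sex and differences that follow fMLP cannot be told apart on these arrays, so both genes are left out of the account of the response.

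The deleted gene and the cell type were checked next. Lcn2 lay between 8.09 and 9.60 on the 5 knockout arrays and between 13.88 and 14.16 on the 5 wild type arrays. On the knockout arrays that level was at percentile 50.3 to 80.8 of all probe sets. The 11 neutrophil markers, among them Ly6g, S100a8 and Mmp8, had a mean level of 12.47 to 13.58 on the knockout arrays. Their median difference was -0.09 between fMLP replicate 1 and unstimulated replicate 3. Fpr1, Fpr2 and Fpr3, the formyl peptide receptor genes, had no probe set of a single gene in the annotation and were not analysed here.

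Because of these differences the response is given first from 1 pair of like arrays, fMLP replicate 1 minus unstimulated replicate 3. With 1 array a side the pair has no replicate check, and its values are a description of those 2 arrays. Of 14070 genes tested, 93 exceeded a log2 difference of 1 (0.661%), and 34 lay below -1 (0.242%). The highest genes other than Xist were Rasgef1b, Atf3, Plk2, Cd69, Cd14, Egr2, Ccl3 and Acod1, all 2.04 to 2.65 higher. The lowest other than Eif2s3y were Epx, Ear6 and Prg2, eosinophil granule genes that were 2.29 to 3.17 lower. At the edge of the threshold lay Gadd45g, at 1.001, and Ppp3cc, at 0.998 and so just outside, and on the other side Mtx2, at -1.01, and Fignl1, at -0.992. The median difference of all genes tested was -0.015.

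The wild type arrays share no array with this pair. All 93 genes were higher on both wild type fMLP arrays than on unstimulated wild type replicate 3, and 57 were more than 1 higher on both, a level that 0.49% of all genes reached. Of the 34 lower genes, 33 were lower on both wild type arrays and 17 by more than 1, against 0.135% of all genes. The share of all genes that were higher, or lower, on both wild type arrays by any amount was not counted. The median of the 93 was 1.31 in the knockout pair and 1.33 in wild type, and that of the 34 was -1.16 and -1.14. The wild type comparison rests on an unstimulated array with the same sex-linked pattern, so it repeats that difference as well as the stimulation. On knockout fMLP replicate 2 the rises were smaller, with a median of 0.455 against unstimulated replicate 3. Of the 93 genes, 67 were higher there and 18 by more than 1, beside 5.02% of all genes. All 34 lower genes were lower there, with a median of -1.98, and 33 by more than 1, beside 5.97% of all genes. These differences share the unstimulated array of the pair.

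**Figure D1:**
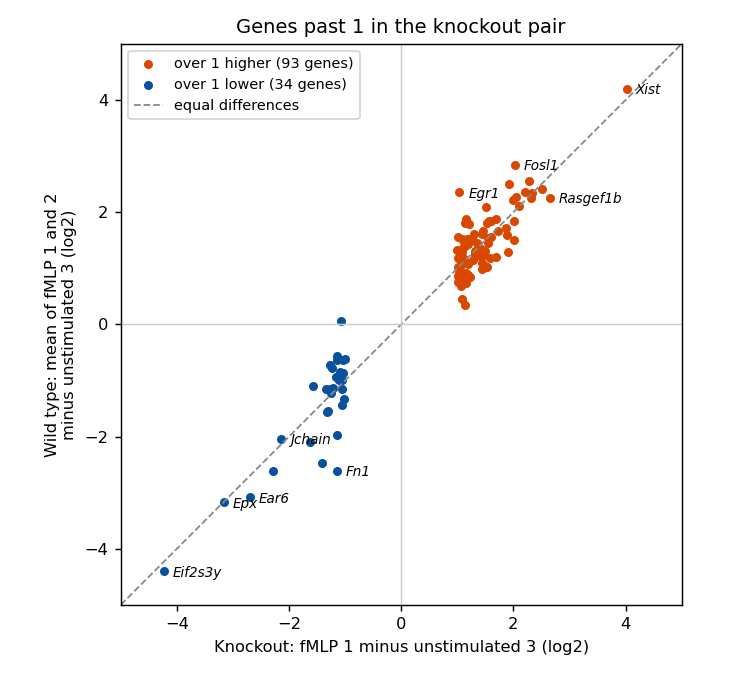
Each point is 1 gene that differed by more than 1 in the knockout pair. The x axis gives its log2 difference between knockout fMLP replicate 1 and unstimulated replicate 3, and the y axis the mean of the 2 wild type fMLP arrays minus wild type unstimulated replicate 3; the dashed line marks equal differences. All 93 higher genes lie above 0 in wild type, and Fn1 lies further below 0 in wild type than in the knockout.

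Taken over 7 lists of genes known from early responses to stimulation (AP-1, other early factors, feedback regulators, mRNA decay, NF-kB, cytokines and activation), 102 of 111 genes were tested. Of these, 32 (31.4%) were more than 1 higher in the pair, beside 0.661% of all genes, and 0 were more than 1 lower. Their median difference was 0.51 in the pair, 0.06 for fMLP knockout replicate 2 and 0.64 in wild type.

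AP-1 is a dimer of Fos, Jun and ATF proteins that binds DNA soon after a cell is stimulated. Atf3, a stress-induced member, stood at 9.28, 9.27 and 8.79 on the unstimulated arrays 1, 2 and 3, and at 11.31 and 10.74 on the fMLP arrays 1 and 2. Fosl1 stood at 8.59, 8.42 and 7.82 against 9.84 and 9.70, and Fosb at 9.38, 9.42 and 9.46 against 11.37 and 10.59. For these 3 genes both fMLP arrays lay above all unstimulated arrays. So did 1330 of all 14070 genes tested (9.45%), and 2113 (15%) lay below them on both, so a lack of overlap between groups of 2 and 3 arrays is only a description. Fos was different in its baseline: it stood at 9.28 and 9.32 on the narrow arrays but already at 11.14 on unstimulated replicate 3, against 12.16 and 11.93. Its pair difference was 1.01, and that of Jun, its main partner, was 0.94. All 10 AP-1 genes tested were higher in the pair, from 0.13 for Batf to 2.51 for Atf3, with a median of 0.85.

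Of 22 other early transcription factors, 20 were higher in the pair and 9 by more than 1. Egr2, a zinc finger factor of the EGR family, stood at 8.88, 8.71 and 8.26 without fMLP and at 10.47 and 10.07 with it. Nr4a1, the orphan nuclear receptor Nur77, stood at 9.27, 9.61 and 9.64 against 11.64 and 11.24. In both genes the groups did not overlap, as in 9.45% of all genes in this direction. Egr1 went from 8.47, 8.68 and 9.71 to 10.74 and 11.09, and the wild type arrays differed more, by 1.58 and 3.13. Per1, a clock gene that also responds to CREB, was 1.60 higher in the pair, Zbtb10 1.44, Bhlhe40 1.40 and the shear-responsive factor Klf2 1.04. Not every early factor was higher: Ier2 and Btg2 had pair differences of -0.27 and -0.12.

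Nr4a2 and Nr4a3 belong to the same receptor family and are also strongly expressed in stimulated neurons. Nr4a2 stood at 9.01, 9.23 and 8.08 without fMLP, at 9.40 on fMLP replicate 1 and at 11.43 on replicate 2. Nr4a3 stood at 7.71, 7.70 and 6.97, then at 7.82 and 9.17. On replicate 1 both were above unstimulated replicate 3, and their highest values came from the array with neuron transcripts; the part of those transcripts in the values was not tested.

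**Figure D2:**
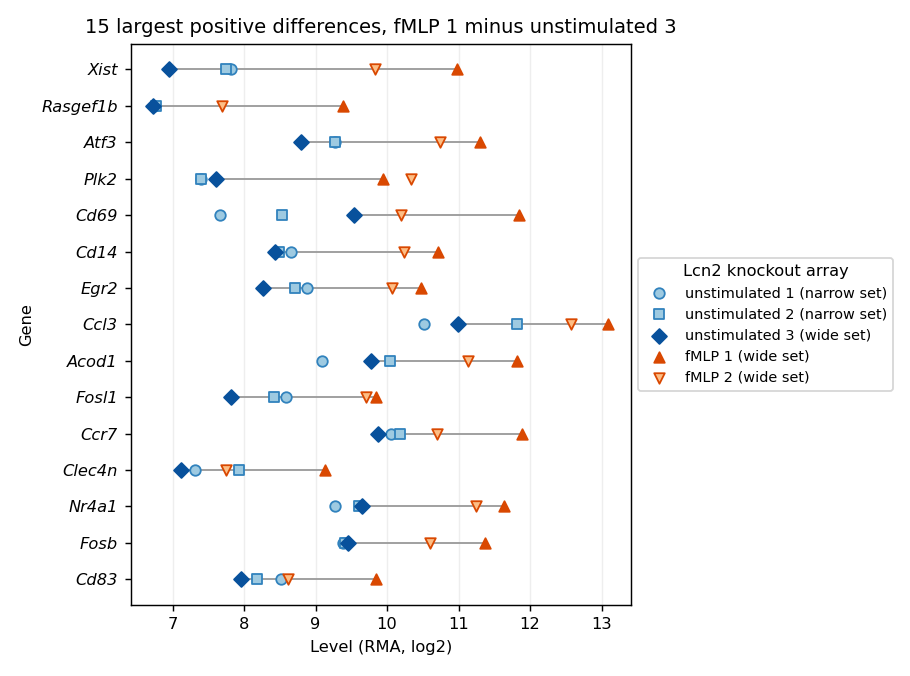
Levels (RMA, log2) of the 15 genes with the largest positive difference in the pair, on each of the 5 knockout arrays. Blue symbols are unstimulated and orange symbols fMLP arrays, and the grey line joins the pair; for Plk2, Fosb, Nr4a1 and Egr2 both fMLP symbols lie right of all unstimulated ones, whereas for Clec4n fMLP replicate 2 lies among them.

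Feedback regulators, which limit kinase and G protein signals once they are under way, had a median of 0.88 over 19 genes. Plk2, a polo-like kinase induced by cell stimulation, stood at 7.39, 7.402 and 7.61 without fMLP and at 9.95 and 10.33 with it. The fMLP arrays were 2.34 and 2.72 above unstimulated replicate 3. Rasgef1b, an exchange factor for Rap proteins, stood at 6.74, 6.76 and 6.73 against 9.38 and 7.69, so replicate 2 carried a smaller part of the difference. Dusp1, the phosphatase that switches off p38 and JNK, was high throughout: 11.13, 12.05 and 12.59 without fMLP and 13.79 and 13.50 with it. Dusp5, a nuclear phosphatase of ERK, stood at 9.28, 8.91 and 9.21 against 10.81 and 10.31. Plk3 was 1.52 higher in the pair, Dusp10 1.49 and Rgs1, which speeds up the turning off of Gi proteins, 1.69, while Rgs2 and Gadd45a had differences of -0.17 and -0.18.

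Of the NF-kB genes, 12 of 13 were higher in the pair, with a median of 0.42, and 2 were more than 1 higher. Nfkbid, a nuclear IkB protein, stood at 8.40, 8.78 and 10.09 without fMLP and at 11.65 and 10.91 with it. Tnfaip3, the A20 protein that ends NF-kB signals, stood at 9.18, 9.05 and 9.16 against 10.70 and 9.65. The NF-kB subunit Nfkb2 was 0.77 higher, and Nfkbia, the classical inhibitor, 0.32. Among 8 mRNA decay genes only Zfp36l1, which marks AU-rich messages for decay, was more than 1 higher, at 1.32. Its relative Zfp36 stood at 12.27 on both arrays of the pair, a difference of 0.00.

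Of 16 cytokine and chemokine genes tested, 2 were more than 1 higher. Ccl3, the chemokine MIP-1 alpha, stood at 10.52, 11.82 and 10.99 without fMLP and at 13.10 and 12.57 with it. Cxcl2, a neutrophil attractant, stood at 9.09, 9.63 and 10.48 against 11.64 and 11.35. For Ccl3 the unstimulated arrays spread over 10.52 to 11.82, and for Cxcl2 the highest of them was the array of the pair. Il1b was 0.99 higher in the pair, Ccl4 0.76 and Osm 0.57. Tnf, at 0.24, and Cxcl1, at 0.01, were close to the median of all genes, -0.015.

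Among 14 activation genes, 6 were more than 1 higher. Cd14, the co-receptor for bacterial lipopolysaccharide, stood at 8.66, 8.48 and 8.43 without fMLP and at 10.71 and 10.23 with it. Cd69, an early activation antigen, stood at 7.67, 8.54 and 9.53 against 11.85 and 10.19, so the unstimulated arrays themselves spread over almost as wide a range as the pair. Acod1, which makes the antimicrobial metabolite itaconate, stood at 9.09, 10.04 and 9.77 against 11.81 and 11.13. Cd83, a surface protein of activated leukocytes, stood at 8.52, 8.18 and 7.95 against 9.84 and 8.61. Hcar2, a receptor for hydroxy acids, and Thbs1, a matrix glycoprotein, were 1.70 and 1.14 higher. Ptgs2, the inducible cyclooxygenase, was 0.72 higher but already stood at 11.64 on unstimulated replicate 3.

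Genes of the machinery that carries the fMLP signal lay near 0. None of 25 tested genes of receptor signalling was more than 1 higher or lower in the pair, and their median was 0.01. Gnai2, the main Gi protein of leukocytes, stood at 13.23 and 13.25, and Rac2, the GTPase of the oxidase and of cell movement, at 13.35 and 13.47. Pik3cg, the phosphoinositide 3-kinase that acts below these receptors, differed by -0.22. Among 11 chemoattractant receptors Ccrl2, an atypical receptor, was 1.28 higher, and Cxcr4, Cxcr2 and C5ar1 differed by 0.51, -0.12 and 0.12. Outside that list the homing receptor Ccr7 stood at 10.06, 10.18 and 9.87 without fMLP and at 11.88 and 10.70 with it. Clec4n, the lectin Dectin-2, stood at 7.31, 7.93 and 7.11 against 9.13 and 7.74.

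Effector genes also stayed near 0. The 8 oxidase genes had a median of 0.02, the 14 secondary granule genes -0.08, the 9 tertiary granule genes -0.04 and the 17 iron genes 0.01, and none of them was past 1 in either direction. Hmox1, the haem-degrading enzyme, was the highest of the iron genes, at 0.62. The 11 heat shock genes had a median of -0.05, with Hspa1a at -0.18. The 18 interferon genes had a median of 0.31, led by Irf7 at 0.99, and the 29 proliferation genes one of -0.36, with Bub1 at -0.77. The 10 survival genes had a median of 0.15.

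Genes of other blood cells differed in the pair too. In RNA of a cell mixture, fewer cells of a type and less RNA per cell cannot be told apart. The 6 tested eosinophil genes were all lower, with a median of -1.78. Epx, the eosinophil peroxidase, stood at 8.56, 8.19 and 11.21 without fMLP and at 8.04 and 7.49 with it. Prg2, the major basic protein, stood at 10.17, 9.71 and 11.98 against 9.68 and 8.56. For both genes the fMLP arrays were below all unstimulated arrays, as in 15% of all genes, and unstimulated replicate 3 stood well above the other unstimulated arrays. Siglecf, a surface lectin of eosinophils, differed by only -0.01.

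Of 5 basophil and mast cell genes 2 were more than 1 lower: Mcpt8, a basophil protease, at -1.31, and Cpa3, a carboxypeptidase, at -1.30. Another 2 of the 5 were higher, by at most 0.37, and the median was -0.23. Of 9 monocyte genes 4 were more than 1 lower and 1 was higher, with a median of -0.70. Ccr2, the receptor that brings monocytes out of the marrow, stood at 7.11, 7.48 and 8.995 without fMLP and at 7.59 and 7.05 with it, so its groups overlapped through the narrow arrays. Ms4a6c was -1.62, Fn1 -1.15 and F13a1 -1.14. Of 10 primary granule genes, which neutrophil precursors express, Elane and Ctsg, the serine proteases neutrophil elastase and cathepsin G, were -1.24 and -1.25, and Mpo was -0.90. The median of the 10 was -0.51, and 3 of them were higher, by at most 0.46. Jchain, a plasma cell gene, was -2.15.

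Lymphocyte genes were mostly higher in the pair. Of 8 T and NK cell genes 7 were higher, with a median of 0.65, and Cd3g, Cd8b1 and Cd3e, chains of the T cell receptor complex and its co-receptor, were 1.73, 1.20 and 1.19 higher. Of 11 B cell genes 8 were higher, with a median of 0.61, among them Cd79b at 0.98 and Cd79a at 0.88. The other 3 were lower, the lowest being Jchain at -2.15. On fMLP replicate 2 the median was -0.49 for the B cell genes and 0.30 for the T and NK cell genes. The 5 erythroid genes had a median of 0.31. Several of the genes in the response are also expressed by lymphocytes, for example Cd69, Cd83, Ccr7, Rgs1 and Klf2. The mean level of the T and NK genes was 8.34 to 8.38 on the unstimulated knockout arrays and 8.89 and 8.32 on fMLP replicates 1 and 2; the part of lymphocytes in the rises was not tested.

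**Figure D3:**
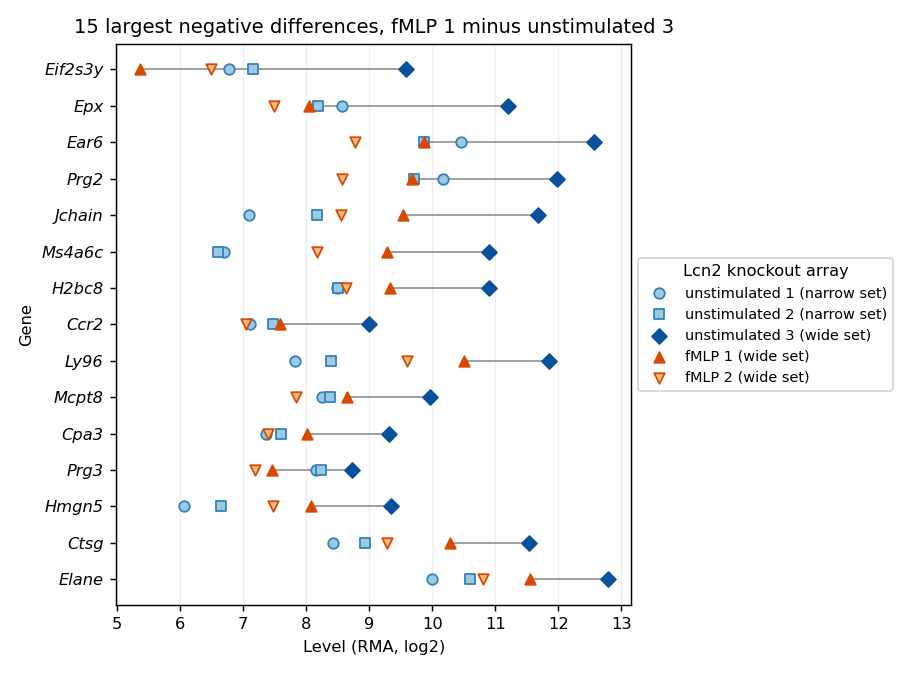
Levels (RMA, log2) of the 15 genes with the largest negative difference in the pair, on each of the 5 knockout arrays, with the grey line joining the pair. For Epx both fMLP symbols lie left of all unstimulated ones, while for Ms4a6c, Ly96, Hmgn5 and Ctsg the narrow unstimulated arrays lie at or left of the fMLP arrays.

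fMLP replicate 2 gave another picture. Against the same unstimulated replicate 3, 707 genes exceeded 1 (5.02%) and 840 lay below -1 (5.97%). Its median over all genes was -0.112, and the medians of most lists lay below those of replicate 1: -0.52 for receptor signalling, -0.78 for secondary granule genes, -0.49 for the neutrophil markers. Of the early lists, activation had a median of 0.60, above its 0.48 on replicate 1, AP-1 one of 0.51 and feedback one of 0.46. The other early factors and the cytokines lay near 0, at 0.02 and 0.04, and NF-kB and mRNA decay below it, at -0.37 and -0.40. On this array the neutrophil markers were lower and the neuron genes higher than on replicate 1, and the part of that in the difference between the replicates was not tested.

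**Figure D4:**
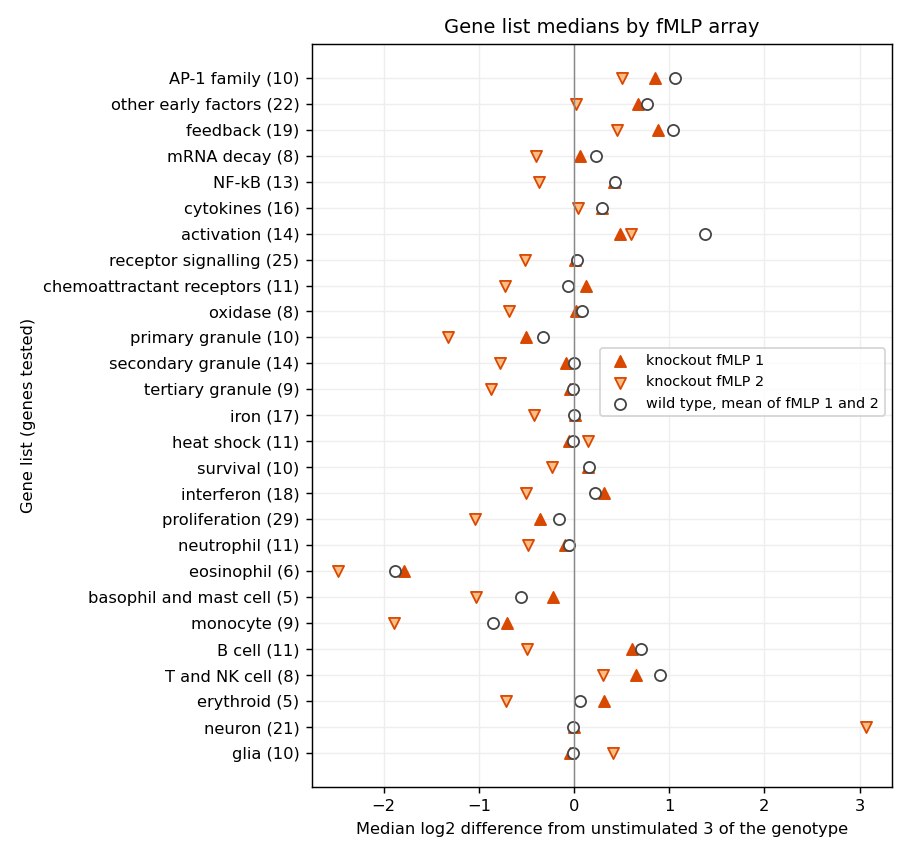
Median log2 difference from unstimulated replicate 3 of the same genotype for 27 gene lists, with the number of genes tested in brackets. Filled triangles are knockout fMLP replicate 1, pale triangles knockout fMLP replicate 2 and circles the mean of the 2 wild type fMLP arrays; replicate 1 lies near wild type in most lists, and replicate 2 lies at 3.07 for neuron genes.

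Promoter sequences are shown for 5 early genes of the pair because their upstream letters hold motifs of factors that act early: the cAMP response element of CREB, the CArG box of serum response factor and the kappaB site of NF-kB. Each run is the 250 bases before the start site in RefSeq, build GRCm38.p6, written 5′ to 3′ on the gene's strand, with motif matches in capitals.
Plk2: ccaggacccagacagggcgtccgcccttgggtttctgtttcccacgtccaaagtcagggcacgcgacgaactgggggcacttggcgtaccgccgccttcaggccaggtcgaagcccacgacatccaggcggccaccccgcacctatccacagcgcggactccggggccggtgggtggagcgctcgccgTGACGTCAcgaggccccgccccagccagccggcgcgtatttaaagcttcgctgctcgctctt
Dusp1: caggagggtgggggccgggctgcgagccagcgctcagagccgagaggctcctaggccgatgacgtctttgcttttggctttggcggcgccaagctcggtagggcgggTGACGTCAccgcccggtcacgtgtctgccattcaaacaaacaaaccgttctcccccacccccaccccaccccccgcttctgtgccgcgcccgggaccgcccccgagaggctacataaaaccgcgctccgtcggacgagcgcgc
Dusp5: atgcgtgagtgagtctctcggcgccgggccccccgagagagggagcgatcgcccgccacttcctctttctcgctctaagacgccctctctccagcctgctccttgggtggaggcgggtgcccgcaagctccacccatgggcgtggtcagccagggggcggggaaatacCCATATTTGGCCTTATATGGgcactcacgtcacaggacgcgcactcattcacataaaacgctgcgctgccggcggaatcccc
Cxcl2: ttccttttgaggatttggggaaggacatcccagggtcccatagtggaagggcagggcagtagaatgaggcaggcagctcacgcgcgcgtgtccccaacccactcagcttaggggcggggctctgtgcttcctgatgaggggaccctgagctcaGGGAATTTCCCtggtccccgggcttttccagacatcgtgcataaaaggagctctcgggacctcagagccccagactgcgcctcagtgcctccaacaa
Fosb: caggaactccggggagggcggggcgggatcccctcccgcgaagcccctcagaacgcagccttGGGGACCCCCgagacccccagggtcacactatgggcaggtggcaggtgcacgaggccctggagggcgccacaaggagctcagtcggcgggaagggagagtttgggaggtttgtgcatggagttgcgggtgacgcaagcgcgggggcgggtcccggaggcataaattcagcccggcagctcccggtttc

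The Plk2 run lies at chr13:110394794-110395043 (plus strand) and holds the response element TGACGTCA at positions -62 to -55 from the start site. The Dusp1 run, at chr17:26508473-26508722 (minus strand), holds the same letters at -143 to -136. The Dusp5 run, at chr19:53528895-53529144 (plus strand), holds 2 adjoining CArG boxes at -82 to -73 and -72 to -63. The Cxcl2 run, at chr5:90903649-90903898 (plus strand), holds 2 overlapping kappaB matches from -97 to -87, and the Fosb run, at chr7:19310046-19310295 (minus strand), holds one at -188 to -179. Each match is a description of letters, not a site of binding.

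Motifs were counted on both strands in windows of 250 bases before and 50 after the start, which 62 of the 93 higher genes had. The response element TGACGTCA was found in 6 of these 62 genes (9.68%) and in 2.03% of all 27025 genes with a window, and the AP-1 motif TGANTCA in 7 (11.3%) and 8.97%. The CArG box was found in 5 (8.06%) and 1.81%, and the kappaB motif in 10 (16.1%) and 5.14%. These shares were not tested, and the genes were chosen by the pair difference. The 27025 genes were not limited to the 14070 tested on these arrays. A gene counted when any of its windows matched, and the 62 genes had 84 windows and the 27025 genes 32851.

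All 5 knockout arrays were then compared in a limma fit of all 10 arrays with a term for the narrow or wide array set, and p-values were adjusted by Benjamini-Hochberg over the 14070 genes. At an adjusted p below 0.05, 4 genes were higher after fMLP (0.0284%) and 8 lower (0.0569%), while 2066 genes had an unadjusted p below 0.05 against 703.5 expected by chance. Besides Xist and Eif2s3y, the named genes called were Plk2 and Selenow, which were higher, and Epx, H2bc8, Prg3, Trappc2, Cetn3 and Derl2, which were lower. Without unstimulated knockout replicate 3, the array with the Y-linked signal, 0 genes were called in either direction, and without fMLP replicate 2 the counts were 196 and 107. Without fMLP replicate 1, which leaves the array with neuron transcripts as the only one of its group, they were 1903 and 3526. Without wild type unstimulated replicate 3 they were 0 and 0, without any 1 of the 4 narrow arrays 1 and 1, and without either wild type fMLP array 5 and 2.

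Plk2 was the 1 gene of the 102 early genes that passed. Its fitted log2 difference was 2.56 (SE 0.179, n = 2 fMLP and 3 unstimulated arrays, of which only replicate 3 was wide, limma, adjusted p = 0.00614). Epx fell by 3.39 (SE 0.254, same fit, Benjamini-Hochberg adjusted p = 0.00614), and Prg3, the second major basic protein, fell by 1.36 (SE 0.143, limma, adjusted p = 0.0261). On the knockout arrays Plk2 exceeded 8.18, the level set for testing, only with fMLP, and Epx only without it. There each gene passed the filter only through the group in which it was high. The calls of Plk2 and Epx, here and under other settings, are therefore a description. Cd14 was 2.00 higher but missed the threshold (SE 0.262, limma, adjusted p = 0.0509). For Nr4a1 the difference was 1.78 (SE 0.270, limma, adjusted p = 0.0854) and for Fosl1 1.97 (SE 0.300, limma, adjusted p = 0.0854). Of the 26 named genes with a fitted difference below 0, 13 turned above 0 without the array set term, among them the called Trappc2, from -1.26 to 0.82, and Derl2, from -1.10 to 0.59. Under other settings and with single arrays left out, Plk2 kept its call in 17 of 22 fits and Epx in 16, whereas Selenow, H2bc8, Trappc2 and Cetn3 kept theirs in 7 of 22, Prg3 in 7 of 21 and Derl2 in 6 of 22.

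Without fMLP replicate 2, the fit left 1 knockout fMLP array, which is assumed to vary like the other groups. With the array set term that array is in the main set against unstimulated replicate 3, so the fit largely restates the pair. The early genes had a median of 0.57 in it and 0.51 in the pair, and its calls are no further evidence of a response. In that fit 196 genes were higher (1.39%) and 107 lower (0.76%), limma with Benjamini-Hochberg adjustment. Among the 102 early genes 32 rose (31.4%) and 0 fell, with a median of 0.57, against -0.015 over all genes. The AP-1 genes that rose were Atf3, Fosl1, Fosb and Jund, 4 of 10. Of the other early factors 8 of 22 rose, of the feedback regulators 9 of 19, of the NF-kB genes 3 of 13, of the activation genes 6 of 14, and 1 each of the mRNA decay and cytokine genes, Zfp36l1 and Ccl3.

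Plk2 rose by 2.37 (SE 0.163), Cd69 by 2.44 (SE 0.306), Cd14 by 2.24 (SE 0.245) and Atf3 by 2.32 (SE 0.349) in that fit. Tnfaip3 rose by 1.54 (SE 0.126) and Per1 by 1.70 (SE 0.162). Fos, at 1.14 (SE 0.408), and Egr1, at 1.29 (SE 0.498), did not pass, with adjusted p of 0.194 and 0.229 from limma. Dusp1, at 1.23 (SE 0.403, adjusted p = 0.155), and Cxcl2, at 1.22 (SE 0.372, adjusted p = 0.129), did not pass either in this limma fit. No gene of 25 in receptor signalling passed in either direction, and 1 of 8 oxidase genes did, the proton channel Hvcn1. Of the 11 chemoattractant receptors Ccrl2 alone passed, with a rise of 1.19 (SE 0.249).

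The same fit called 5 of 6 eosinophil genes lower, 2 of 5 basophil and mast cell genes, 4 of 9 monocyte genes and 1 of 10 primary granule genes, Ctsg. Epx fell by 3.11 (SE 0.223), Ear6, an eosinophil ribonuclease, fell by 2.63 (SE 0.331), and Ccr2 fell by 1.73 (SE 0.296). It called 3 of 8 T and NK cell genes and 3 of 11 B cell genes higher. Of the 21 neuron and 10 glia genes, 0 passed in this limma fit. The direction of some of these lists over all arrays depended on the array set term, which moved the median of all genes from -0.048 with it to 0.102 without it. The monocyte genes had a median of -1.38 with the term and 0.25 without, the primary granule genes -0.85 and 0.14, and the proliferation genes -0.65 and 0.69. The eosinophil genes stayed below 0, at -2.10 and -1.27.

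**Figure D5:**
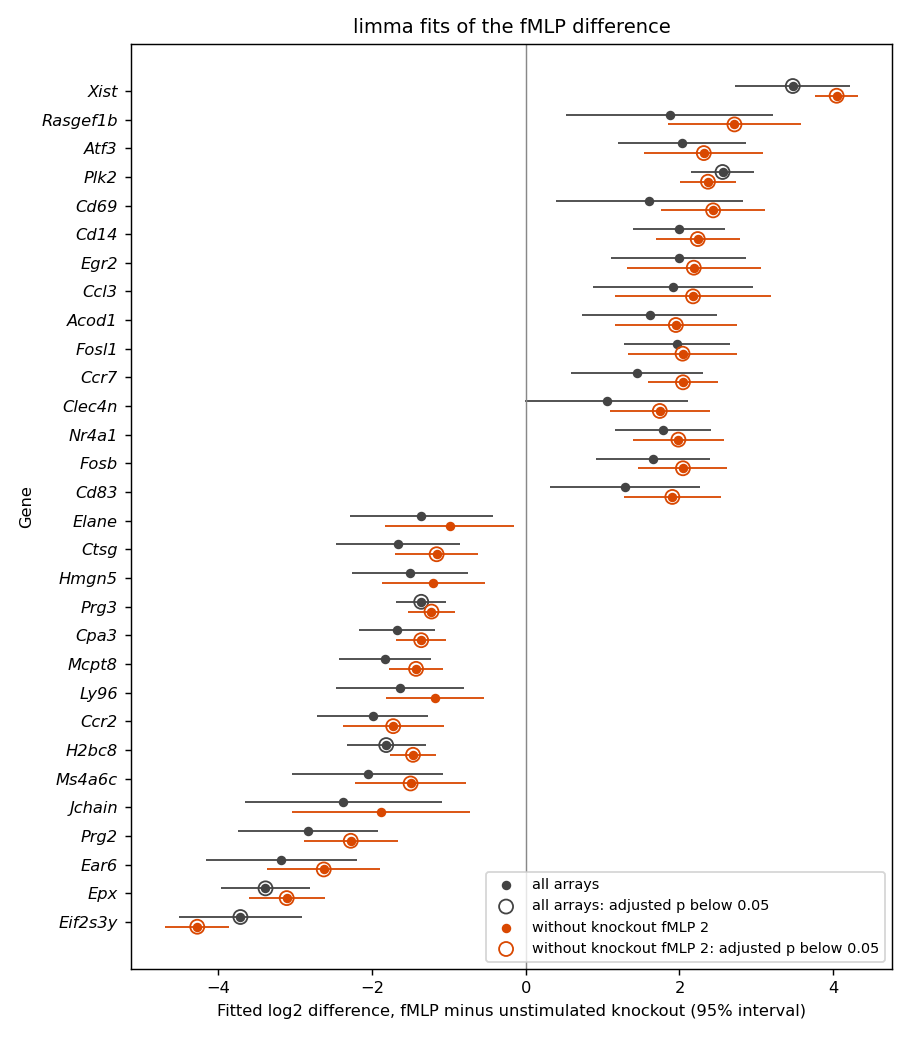
Fitted log2 differences between fMLP and unstimulated knockout arrays, with unadjusted 95% intervals, for the 15 genes highest and the 15 lowest in the pair. Grey marks the fit with all arrays and orange the fit without knockout fMLP replicate 2, and rings mark adjusted p below 0.05; with all arrays 6 of the 30 genes carry a ring, among them Plk2 and Epx.

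Whether the knockout responded differently from wild type was tested as the difference of the 2 fMLP differences in the same fit. By limma with Benjamini-Hochberg adjustment, 0 of 14070 genes passed (0%), and the smallest adjusted p was 0.776. In this limma contrast 258 genes had an unadjusted p below 0.05, fewer than the 703.5 expected by chance. The lack of calls therefore does not show that both genotypes respond alike. Without fMLP knockout replicate 2 the count was also 0, with 125 genes below 0.05 unadjusted, and without fMLP knockout replicate 1 it was 4924. The 8 named genes with the smallest p were Ttk, Fam83d, Bmpr1a, Cdc25c, Gins3, Piga, H3c15 and Nepro, all with a lower difference in the knockout. Ttk, a kinase of the mitotic checkpoint, had a difference of -0.76 (95% interval -1.19 to -0.32), and Cdc25c, a phosphatase that starts mitosis, -0.67 (-1.10 to -0.24). All 29 proliferation genes had a negative value with all arrays, as did 60.9% of all genes tested and every member of several other lists, for example 18 of 18 interferon and 11 of 11 B cell genes. Without replicate 2 the counts were 23 of 29, 10 of 18 and 1 of 11, beside 51.6% of all genes, and none of these genes passed in either fit.

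For the early genes the genotype difference was larger with replicate 2 than without it. The median over the AP-1 list was -0.35 with it and -0.15 without, that over the feedback list -0.30 and 0.05, and that over all genes -0.072 and -0.006. For Plk2 the knockout minus wild type difference was 0.24 (95% interval -0.25 to 0.74), an interval that holds both a larger and a smaller response in the knockout. For Fosl1 it was -0.86 (-1.68 to -0.04), and for Egr1 -0.63 (-1.94 to 0.69).

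Tnfaip6, a secreted hyaluronan-binding protein of inflammation, was singled out among the activation genes after its values were seen. In the knockout it stood at 7.44, 7.19 and 7.18 without fMLP and at 7.10 and 7.82 with it. In wild type it stood at 7.68, 7.35 and 7.20 against 8.31 and 9.25. Only the 2 wild type fMLP arrays were above 8.18, the level that 2 arrays had to exceed for a gene to be tested. Tnfaip6 was thus tested only through the group in which it was high, so the intervals below are a description and no support for a genotype difference. After fMLP both wild type arrays lay above both knockout arrays, as they did in 3656 of all genes tested (26%). The difference of the responses was -1.18 (95% interval -2.15 to -0.21) with all arrays and -1.54 (-2.34 to -0.74) without replicate 2. Neither passed in limma, with adjusted p of 0.776 and 0.9999 after Benjamini-Hochberg.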

How the data were processed

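The deposited table holds 1 value per probe set and array of an Affymetrix Mouse Gene ST array. The authors made the values with RMA in Affymetrix Expression Console, per the submitters' processing notes, and their range fits a log2 scale; neither the log base nor whether 1 run covered all arrays is given in the sources used here. RMA forces arrays processed together to 1 distribution, so the narrow and wide sets (interquartile range below or above 2) limit comparisons across them. Of 35556 probe sets 21789 name 1 gene, 1621 several and 12146 none in the platform annotation, and 21766 of those with 1 gene are in the RefSeq gene table. Each of 19938 genes was read from the single-gene probe set whose mean over the arrays was highest (999 had several), and 14070 with at least 2 arrays above 8.18, the median of all values, were tested.

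Differences between single arrays were taken without a test, and genes past 1 on the log2 scale were counted. All 10 arrays were fitted with limma 3.58.1 in R 4.3.3, with a coefficient per group and a term for the array set (5 residual degrees of freedom), two-sided, Benjamini-Hochberg over all tested genes, called below 0.05. The number of arrays limits the precision. Whether the replicate numbers pair the samples was not settled, and the main fit used no pairing. Deviations of same-numbered arrays correlated at -0.412 and 0.373. With 2 fMLP arrays the deviations from their mean are exact opposites, and the narrow unstimulated replicates 1 and 2 deviate alike. The signs therefore had to differ, and the check cannot decide. Alternatives were other filters, quantile normalization, means over probe sets, array weights, a variance trend with robust moderation, a replicate block (statmod 1.5.0), subsets of arrays and leaving out each array; 1, without the array set term and without fMLP knockout replicate 2, was chosen after seeing the data. Genes named are the 15 highest and 15 lowest of the pair, called genes (or the smallest p), listed genes and the label checks, leaving out predicted and small RNA genes. Outside that rule, the genes at the threshold's edge, Tnfaip6 beyond its list values, and the genes under the other observations were picked after their values were seen. The arrays, gene lists and tests were chosen with earlier results of these data known.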

Additional observations from a re-analysis of the deposited data

How the results depend on the processing

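The count of called genes depended on single arrays and on the array set term. Leaving out 1 array at a time gave 0 to 1903 genes called higher, 0 to 3526 called lower and 0 to 4924 for the genotype difference. The 1903, 3526 and 4924 came from the fit without fMLP knockout replicate 1, which rests on the array with neuron transcripts, and the fits without unstimulated replicate 3 of either genotype called 0. Higher and lower calls were 1 and 0 without the array set term, 0 and 0 with the 6 wide arrays, with the 5 knockout arrays, or without both the term and fMLP replicate 2, 2 and 2 after quantile normalization, 2 and 3 with array weights, 3 and 5 with no filter, and 6 and 14 with trend and robust moderation. With a fixed replicate block and no array set term they were 5683 and 4761, a fit that by construction holds the difference between narrow and wide arrays; a random block with the term gave 5 and 11.

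In the pair, 707 and 840 genes passed 1 with fMLP replicate 2 in place of replicate 1, 2670 and 379 against the mean of the 3 unstimulated arrays, and 69 and 19 after quantile normalization. Against that mean, falls turned to 0.55 for Jchain, 1.22 for Ms4a6c, 0.037 for H2bc8, 1.16 for Ly96, 0.73 for Hmgn5, 0.65 for Ctsg and 0.42 for Elane. Fitted falls turned under the fixed replicate block to 0.44 for H2bc8, 1.86 for Trappc2, 0.36 for Cetn3, 1.44 for Derl2, 2.02 for Ms4a6c, 1.87 for Ly96, 1.39 for Hmgn5, 1.06 for Ctsg, 1.17 for Bmpr1a and 1.26 for H3c15, and 19 of the 26 named genes below 0 turned in all. Without the term 13 of 26 turned: Trappc2 to 0.82, Derl2 to 0.59, Ms4a6c to 0.66, Ly96 to 0.70, Bmpr1a to 0.62, H3c15 to 0.55, Hmgn5 to 0.42, and Ctsg, Elane, Jchain, Nepro, Piga and Gins3 to between 0.01 and 0.20. Without fMLP replicate 2 as well 14 turned, with Trappc2 at 0.86, Derl2 at 0.59 and H2bc8 at 0.037. The causes were not tested. Plk2 kept its call in 17 of 22 alternatives and its direction in all 22, and Epx its call in 16. Both calls remain a description, because on the knockout arrays each gene exceeded 8.18 only in the group in which it was high.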

Other observations

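Genes that present antigen or mark lymphocytes stood among the higher genes of the pair without being in a gene list, and they are given here as values chosen after the data were seen. H2-Aa, a chain of MHC class II, stood at 8.23, 9.87 and 11.25 on the unstimulated knockout arrays and at 12.31 and 10.64 on the fMLP arrays. H2-DMa, which loads peptides on class II, was 1.22 higher in the pair, and the B cell homing receptor Cxcr5 1.46. Irf4, a lymphocyte transcription factor, was 1.38 higher. On fMLP replicate 2 all 4 were at or below unstimulated replicate 3, with differences of -0.61, -0.28, -0.11 and -0.19. On the wild type fMLP arrays the differences were 1.76 and 0.89 for H2-Aa, 1.09 and 0.59 for H2-DMa, 2.22 and 1.11 for Cxcr5, and 1.36 and 1.31 for Irf4.

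Of 34 small nucleolar RNA genes tested, also picked after their values were seen, 5 (14.7%) were past 1 in the pair. That share was 0.661% for all genes tested. 1 was below -1, beside 0.242% of all genes. Snord57 stood at 12.25, 12.56 and 11.41 without fMLP and at 13.32 and 11.92 with it. Snord37 stood at 5.49, 5.52 and 6.84 against 8.06 and 7.93. It was called higher with all arrays (limma, log2 difference 1.24, SE 0.135, Benjamini-Hochberg adjusted p = 0.0290). All 5 knockout values lay below 8.18, the level set for testing, so Snord37 was tested only through wild type arrays. Its call rests on knockout values below the median of all values.

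2 further genes were picked in the same way. Ciart, a repressor of the circadian clock, was 1.42 higher in the pair and 1.35 on fMLP replicate 2, beside Per1 at 1.60 and 0.94. The metallothionein Mt2 was 1.09 and 2.19 higher on fMLP replicates 1 and 2, and 1.57 and 1.48 in wild type.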
